A study of Mus musculus with 6 samples.

Results

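The genes described here are those of the interferon response and of antigen presentation by MHC class I, 40 genes of the 25239 in the count table. They were picked by gene symbol: 3 cytoplasmic RNA sensors, 5 transcription factors, 12 antiviral effectors, 3 genes of the ISG15 system, 5 further interferon-induced genes, 3 immunoproteasome subunits, 3 genes of peptide loading and 6 genes of class I molecules. All 40 had a row in the table. Of these, 31 had enough counts to be tested and 9 did not.

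The tissue was the mouse yolk sac at embryonic day 9.5, sequenced as 3 wild-type (WT) libraries and 3 libraries labelled DKO. The WT embryos were of the CD1 strain and untreated. The libraries labelled DKO came from embryos of mixed background with the genotype Cdx1-/- Cdx2fl/fl Actin::CreERT, which were exposed to tamoxifen at embryonic day 5.5. The fl allele carries recombination sites around a stretch of DNA that Cre cuts out. The Cre was driven by an actin promoter, which is active in most cell types, and needs tamoxifen to act. Controls with Cre alone or tamoxifen alone were not analysed here, so genotype, strain and tamoxifen cannot be told apart in any difference below. Whether each library held 1 yolk sac or several, and whether litters were separate, is not in the labels; p-values therefore measure the spread between these samples alone, which may be technical.

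Type I interferons bind a receptor made of Ifnar1 and Ifnar2 and act through the kinases Jak1 and Tyk2. A factor that contains Stat2 and Irf9 then binds the interferon-stimulated response element (ISRE), whereas interferon gamma acts mainly through gamma-activated sites (GAS). Among the genes switched on this way are RNA sensors, antiviral effectors and the machinery that cuts, transports and displays peptides on MHC class I, whose light chain is B2m. Early embryonic tissues are known for low class I levels and for weak interferon production, and yolk sac macrophages arise at about the stage sampled.

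Between 20040601 and 56732836 counts were assigned in each library. Levels are in CPM (counts relative to the TMM-scaled size of the library), on which 3 counts equalled 0.0542 to 0.149. The targeted gene Cdx2 measured 16.6, 18.9 and 20.3 CPM across the WT libraries, against 23, 24.1 and 25.7 CPM for those labelled DKO. It was therefore not lower where the label calls for its loss (log2 fold change 0.38, SE 0.12, adjusted p = 0.449, edgeR). Cdx1, labelled as -/-, had 0, 1 and 8 counts across the WT libraries, against 10, 14 and 14 for those labelled DKO. In CPM these were 0, 0.0486 and 0.397, against 0.405, 0.36 and 0.253. Cdx1 was not tested, and so near the limit of detection in WT its loss could not have been seen. Since counts are per whole gene, reads of a deleted exon cannot be told from those of the exons that remain. Visceral endoderm markers, which define the tissue, summed to 35404, 32942 and 29801 CPM across WT libraries 1 to 3, against 20216, 35752 and 54835 CPM across libraries 1 to 3 labelled DKO (exact permutation p = 0.7, two-sided). Mesothelium and mesenchyme markers summed to 4731, 2948 and 2607 CPM across WT libraries 1 to 3, against 1863, 6705 and 8015 CPM across libraries 1 to 3 labelled DKO (exact permutation p = 0.4). For both lists the sum was the lowest of the 6 libraries in library 1 labelled DKO and the highest in library 3. The single markers did not move together in library 3. Of 15 visceral endoderm markers 8 lay above all WT libraries there and 7 below, and of 14 mesothelium and mesenchyme markers 7 and 6. In library 1 these were 3 and 11, and 6 and 5. The most abundant marker held 1725698 of the 3033017 visceral endoderm counts of library 3. The part of both tissues in the results below was not tested. Library 3 labelled DKO stood apart, with primitive erythroid markers at 2844 CPM against 8240 CPM or more in each of the other 5 libraries. In bulk tissue, fewer cells of a type and less RNA per cell cannot be told apart.

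Across the 40 genes, the levels did not move as a block. H2-T10 and H2-T22, a pair of nearby non-classical class I genes, were lower in all 3 libraries labelled DKO. Bst2, Ifi27l2b, H2-D1, Tap1, Tap2 and Usp18 were higher in all 3 than in any WT library. For H2-D1, Tap1, Tap2 and Usp18, library 1 exceeded the highest WT value by less than its counting error (95% Poisson interval). Tap1 in library 1, for example, was at 1.34 CPM (interval 0.921 to 1.88), against 1.26 CPM in WT library 1. Tap1 and most of the other genes were high mainly in library 3 labelled DKO. By edgeR's quasi-likelihood test, 0 of the 31 tested genes passed an adjusted p of 0.05 (Benjamini-Hochberg over 14002 genes), in a comparison where 5 genes passed, 0.0357% of those tested. At an unadjusted p under 0.05 the same test gave 5 of the 31 higher and 2 lower, beside 5.55% and 3.54% of all genes tested. DESeq2, which called 296 genes or 1.92% of those with an adjusted p, called 4 of 38: Bst2 and Ifi27l2b higher (1.16% of all), H2-T10 and H2-T22 lower (0.767% of all). With limma-voom and library quality weights 8 of the 31 passed, beside 18.7% of all genes: the same 4, and Ddx58, H2-D1, Ifitm1 and Parp9 higher. The groups did not overlap for 6 of the 31 upward and for 2 downward, beside 7.93% and 7.61% of all genes tested.

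**Figure D1:**
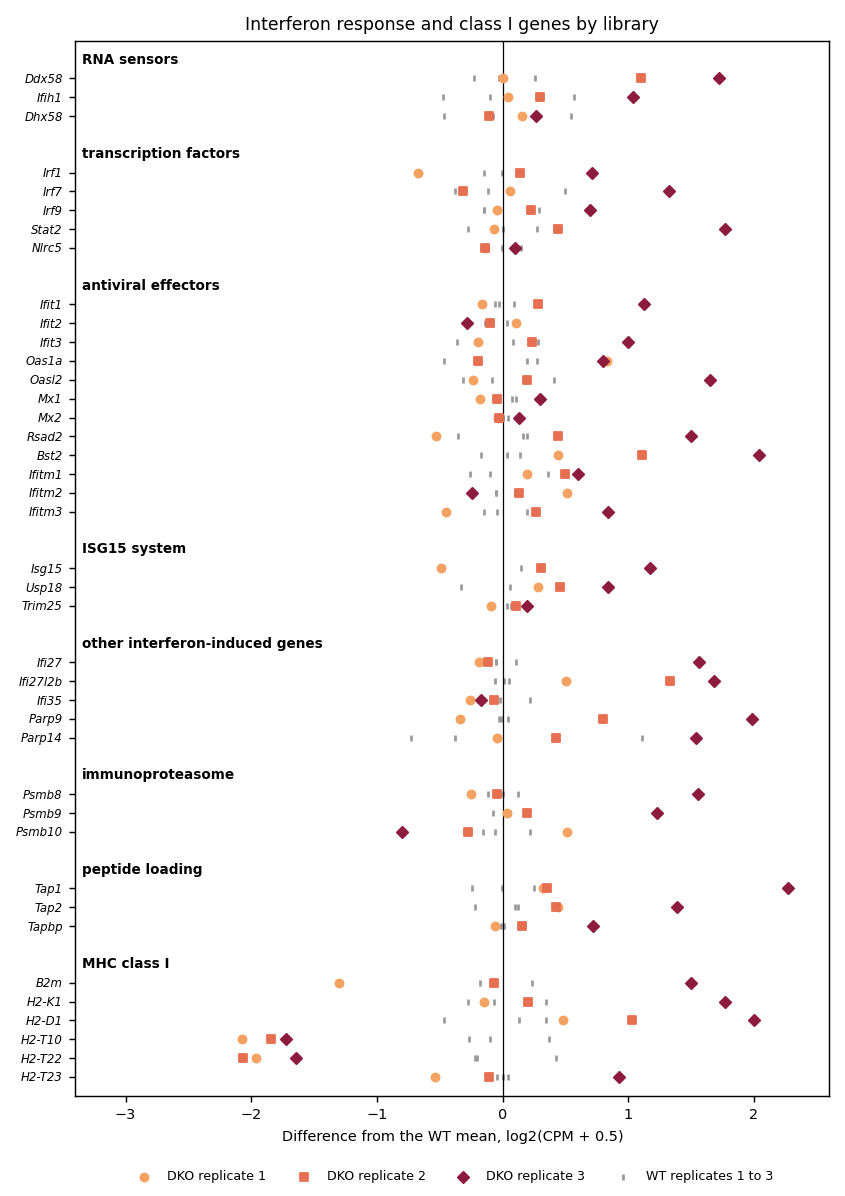
Difference of each library from the WT mean on the log2(CPM + 0.5) scale (x axis) for the 40 genes in groups by role (y axis); grey ticks are the 3 WT libraries and coloured symbols the 3 libraries labelled DKO. Library 3 labelled DKO was the highest of the 6 libraries for 31 of the 40 genes, and H2-T10 and H2-T22 lie to the left in all 3.

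The libraries labelled DKO differed in how many of the 31 tested genes they placed above all 3 WT libraries. Library 1 did so for 9 genes (29%), library 2 for 15 (48.4%) and library 3 for 24 (77.4%), whereas over all genes tested the shares were 34.1%, 34.7% and 41.5%. A difference of more than 1 from the WT mean, on the log2(CPM + 0.5) scale, was seen for 0, 4 and 15 of the 31, beside 1.5%, 2.21% and 7.93% of all genes tested. Library 3 was the highest of the 6 libraries for 24 of the 31 genes (77.4%), and for 34.7% of all genes tested. The median difference of the 31 genes was -0.04 in library 1, 0.23 in library 2 and 1 in library 3, beside 0.01, 0.00 and 0.01 over all genes tested.

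Fold changes moved with that library. With all 6 libraries, 26 of the 31 tested genes had a positive log2 fold change, with a median of 0.66, beside 51.9% positive and a median of 0.01 over all genes tested. Without library 3 labelled DKO, 20 of 31 were positive and the median was 0.02, beside 51.2% and 0.01. edgeR then called 0 of the 31, where 0.0567% of all genes passed, and 3 higher and 2 lower had an unadjusted p under 0.05, beside 4.62% and 4.24% of all genes tested. DESeq2 called the same 4 as with all libraries, where 1.63% of all genes passed. Without library 1 labelled DKO the median was 0.96, and 5 of 32 tested genes passed the adjusted threshold in edgeR, where 4.42% of all genes did. These were Bst2, Ddx58 and Ifi27l2b higher (3.02% of all) and H2-T10 and H2-T22 lower (1.4% of all). DESeq2 called 11 without library 1, where 20.1% of all genes passed. Because the filter on low counts keeps a gene that is high in one group only, these counts are descriptions and not support for a direction.

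**Figure D2:**
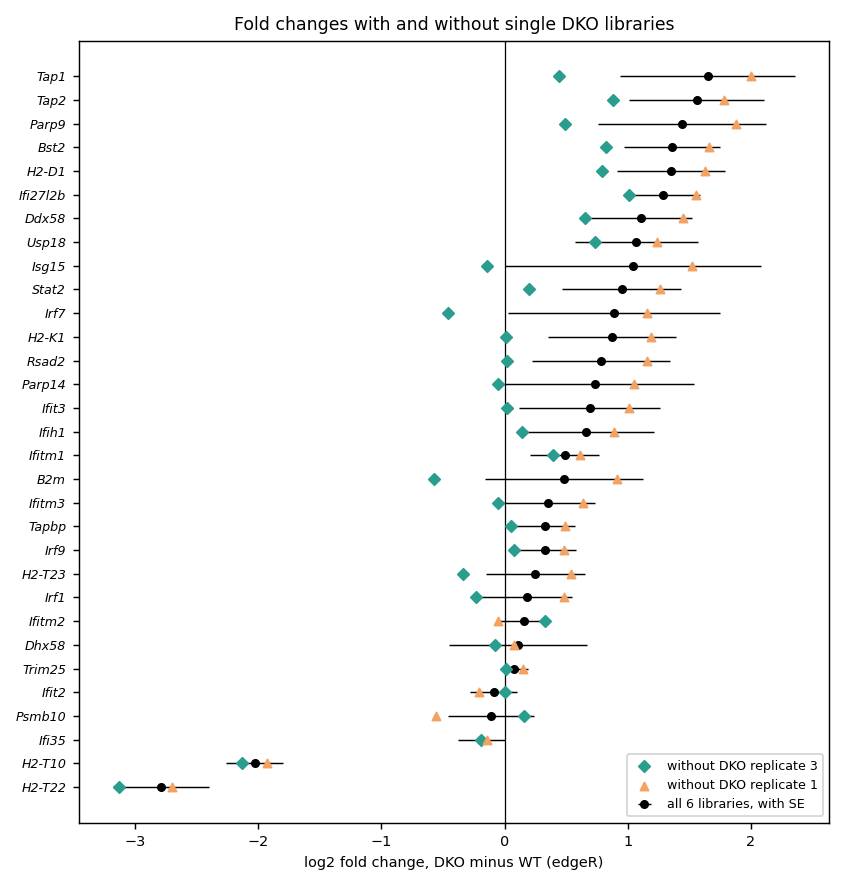
edgeR log2 fold changes (x axis) of the 31 tested genes (y axis) with all 6 libraries (circles, with SE), without library 3 labelled DKO (diamonds) and without library 1 labelled DKO (triangles). The median was 0.66, 0.02 and 0.96 in turn, and H2-T10 and H2-T22 stayed between -1.93 and -3.13 in each fit.

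Promoter windows are printed here for genes that carry the interferon response element, not for every gene with a low p. RefSeq promoters of GRCm38.p6, from 250 bases before to 50 after the gene start, matched 29 of the 40 genes. H2-T10 and Ifi27l2b were not among them. The ISRE core (GAAA, 2 bases of any kind, then GAAA), searched on both strands, was present in 14 of the 29 (48.3%), tested or not. It was in 3.99% of all genes with a window, in 3.46% of the tested ones and in 3.44% of all windows. The GAS core TTCNNNGAA, also on both strands, was present in 7 of 29 (24.1%), in 9.55% of all genes with a window and in 8.22% of the tested ones. The 40 genes were picked for the interferon response and class I, so more matches than over all genes were built into that choice. The 5 windows with an ISRE core whose genes had the lowest p follow, 5′ to 3′ along the gene, with the matching letters in capitals. A match on the other strand reads TTTC, 2 bases and TTTC, and the capitals in Bst2 are a pair of overlapping matches.
H2-T22: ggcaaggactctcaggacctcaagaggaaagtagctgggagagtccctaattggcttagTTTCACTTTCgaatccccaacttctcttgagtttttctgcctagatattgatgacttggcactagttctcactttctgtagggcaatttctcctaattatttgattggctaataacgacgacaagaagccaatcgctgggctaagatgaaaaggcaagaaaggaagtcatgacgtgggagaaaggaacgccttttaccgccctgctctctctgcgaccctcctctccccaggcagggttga
Bst2: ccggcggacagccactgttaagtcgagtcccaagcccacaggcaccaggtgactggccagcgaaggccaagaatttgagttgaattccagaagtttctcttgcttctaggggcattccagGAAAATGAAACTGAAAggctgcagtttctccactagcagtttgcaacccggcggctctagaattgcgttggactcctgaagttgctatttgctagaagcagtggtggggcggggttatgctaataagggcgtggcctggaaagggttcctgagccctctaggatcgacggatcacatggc
Ddx58: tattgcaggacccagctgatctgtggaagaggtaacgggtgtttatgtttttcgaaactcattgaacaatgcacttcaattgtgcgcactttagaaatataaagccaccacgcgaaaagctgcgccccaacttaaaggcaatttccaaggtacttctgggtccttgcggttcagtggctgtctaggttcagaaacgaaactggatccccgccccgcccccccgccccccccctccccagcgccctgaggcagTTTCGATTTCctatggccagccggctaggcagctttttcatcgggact
Stat2: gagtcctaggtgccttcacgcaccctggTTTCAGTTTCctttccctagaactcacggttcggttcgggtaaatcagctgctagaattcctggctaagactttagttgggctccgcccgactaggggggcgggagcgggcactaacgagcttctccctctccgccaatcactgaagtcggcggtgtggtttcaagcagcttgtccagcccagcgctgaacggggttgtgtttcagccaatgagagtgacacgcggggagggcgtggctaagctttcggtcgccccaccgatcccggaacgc
Rsad2: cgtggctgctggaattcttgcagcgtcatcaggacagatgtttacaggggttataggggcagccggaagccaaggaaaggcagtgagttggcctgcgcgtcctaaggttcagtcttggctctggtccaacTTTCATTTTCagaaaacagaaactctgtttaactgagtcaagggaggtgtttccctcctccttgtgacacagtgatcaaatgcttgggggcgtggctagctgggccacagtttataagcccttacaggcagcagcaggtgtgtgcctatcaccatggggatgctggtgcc

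These windows lie on the minus strand at chr17:36042693-36042992 (H2-T22), chr8:71537423-71537722 (Bst2), chr4:40239776-40240075 (Ddx58) and chr12:26456403-26456702 (Rsad2), and on the plus strand at chr10:128270248-128270547 (Stat2). Counted from 0 at the gene start, the element spans positions -191 to -182 in H2-T22, -222 to -213 in Stat2 and -120 to -111 in Rsad2, whereas in Ddx58 it spans 2 to 11. Having the core did not go with one direction: H2-T22 was the gene with the largest negative fold change, and the other 4 had positive ones. Of the tested genes with a window, 11 of 12 with the ISRE core and 9 of 12 without it had a positive fold change. A match is a description of letters, not a sign that a factor is bound there.

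Of the RNA sensors, Ddx58 (RIG-I, which detects short double-stranded viral RNA ends) was the most abundant. It measured 28, 22.8 and 19.8 CPM across WT libraries 1 to 3, against 23.3, 50.5 and 78.1 CPM across libraries 1 to 3 labelled DKO. Library 1 labelled DKO lay within the WT range and the other 2 lay above it. The mean was 23.5 ± 4.14 CPM (SD, n = 3) for WT and 50.6 ± 27.4 CPM for those labelled DKO, and the log2 fold change of 1.11 (SE 0.41) did not pass in edgeR or DESeq2 (adjusted p = 0.518 and 0.166) and passed in limma-voom with quality weights (1.06, adjusted p = 0.0151). Without library 3 it was 0.65, and without library 1 it was 1.45 with an adjusted p of 0.0379 in edgeR. Ifih1 (MDA5, a sensor of long double-stranded RNA) and Dhx58 (LGP2, which modulates the other sensors) were low, from 0.447 to 2.19 CPM and from 0.194 to 0.893 CPM over the 6 libraries. Neither separated the groups, with log2 fold changes of 0.66 (SE 0.55) and 0.11 (SE 0.56), in turn.

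The transcription factors that carry the interferon signal were present in every library except for Nlrc5, the class I transactivator, which had at most 5 counts. Stat2, which acts with Irf9 at the ISRE, measured 14.8, 12.2 and 9.98 CPM across WT libraries 1 to 3, against 11.6, 16.7 and 42.7 CPM across libraries 1 to 3 labelled DKO. Library 1 fell within the WT range, library 2 lay just above it and library 3 far above it. Its log2 fold change of 0.95 (SE 0.48, adjusted p = 0.607, edgeR) was 0.20 without library 3. Irf9, the DNA-binding subunit of that factor, was at 7.24 to 10 CPM across the WT libraries, against 7.82 to 13.4 CPM for those labelled DKO, with overlapping groups. Irf1 and Irf7, which switch on interferon-induced genes and interferon genes respectively, had a log2 fold change of 0.18 (SE 0.37) for Irf1 and 0.89 (SE 0.86) for Irf7, and both turned negative without library 3 (-0.23 and -0.46).

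Among the antiviral effectors, Bst2 (tetherin, which holds budding virions at the cell surface) was higher in all 3 libraries labelled DKO. It measured 30.2, 28 and 24.3 CPM across the WT libraries, against 37.3, 59.6 and 114 CPM for those labelled DKO. The groups did not overlap, although library 3 held the largest part of the difference. The means were 27.5 ± 2.96 CPM and 70.4 ± 39.7 CPM (SD, n = 3), a 2.57-fold difference (log2 1.36, SE 0.39). It passed in DESeq2 (adjusted p = 0.029) and did not in edgeR (adjusted p = 0.403). Without library 3 the log2 fold change was 0.82, still past the threshold in DESeq2 (adjusted p = 0.0335) and not in edgeR (adjusted p = 0.282). Without WT library 1, 2 or 3 or library 2 labelled DKO, the DESeq2 call of Bst2 was lost (adjusted p = 0.186, 0.258, 0.339 and 0.107), while its DESeq2 log2 fold change was 1.42, 1.36, 1.26 and 1.45, beside 1.35 with all libraries. Bst2 spans chromosome 8 from 71534255 to 71537456 on the minus strand of GRCm38, and shares no 50-base stretch of its exons with another annotated gene.

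The 3 Ifitm genes encode membrane proteins that block virus entry. Ifitm2 measured 19.5, 19.5 and 21.7 CPM across WT libraries 1 to 3, against 29, 22.1 and 17 CPM across libraries 1 to 3 labelled DKO, so library 3 was the lowest of all 6. Its log2 fold change was 0.16 (SE 0.20) and -0.05 without library 1, and 48.5% of its 50-base exon stretches also occur in other annotated genes, so reads may have been split or dropped. Ifitm1 and Ifitm3 ranged from 2.08 to 4.18 CPM and from 2.43 to 6.65 CPM, with overlapping groups and log2 fold changes of 0.49 (SE 0.28) and 0.35 (SE 0.38). Ifitm1 passed in limma-voom with quality weights (0.64, adjusted p = 0.0486) and not in edgeR or DESeq2. Ifit2, a protein that binds viral RNA, was at 4.75 to 6.4 CPM in all 6 libraries and lowest in library 3 labelled DKO (log2 fold change -0.09, SE 0.19). Rsad2 (viperin, a radical SAM enzyme that limits virus replication) measured 3.34, 3.25 and 2.13 CPM across WT libraries 1 to 3, against 1.82, 4.06 and 8.99 CPM across libraries 1 to 3 labelled DKO, with library 1 the lowest of all and library 3 the highest. Its log2 fold change of 0.78 (SE 0.56) dropped to 0.02 without library 3.

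Several of the genes best known as interferon-induced were close to undetected in WT yolk sac. Ifit1, Oas1a, Oasl2, Mx1, Mx2, Ifi27, Psmb8, Psmb9 and Nlrc5 had at most 11 counts in any WT library and were not tested. In library 3 labelled DKO, 8 of these 9 lay above all WT libraries in CPM, with 5 to 91 counts for the 9. The same was true of 1 of 9 in library 1 and of 2 of 9 in library 2. Of the 3005 untested genes whose mean CPM fell in the range of these 9, 30.5%, 29.8% and 42.1% lay above all WT libraries in libraries 1, 2 and 3 labelled DKO. Oasl2, an oligoadenylate synthetase-like protein, had 11, 3 and 1 counts across the WT libraries, against 2, 11 and 91 for those labelled DKO, that is 0.0496 to 0.408 CPM against 0.0811, 0.283 and 1.65 CPM. Ifi27 had 3, 1 and 1 counts across the WT libraries, against 0, 1 and 65 for those labelled DKO, and Psmb8 had 4, 2 and 1 against 0, 3 and 69. Library 3 was the deepest of all, with 56732836 counts against 20040601 to 26855337 in the WT libraries. In CPM, Ifi27 was at 0.0486 to 0.111 in WT and 1.18 in library 3, and Psmb8 at 0.0496 to 0.148 and 1.25. Ifit3, which had enough counts to be tested (log2 fold change 0.69, SE 0.57), shares 51.2% of its 50-base exon stretches with Ifit3b, and Oas1a shares 57.6% with Oas1g, so their levels are uncertain.

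**Figure D3:**
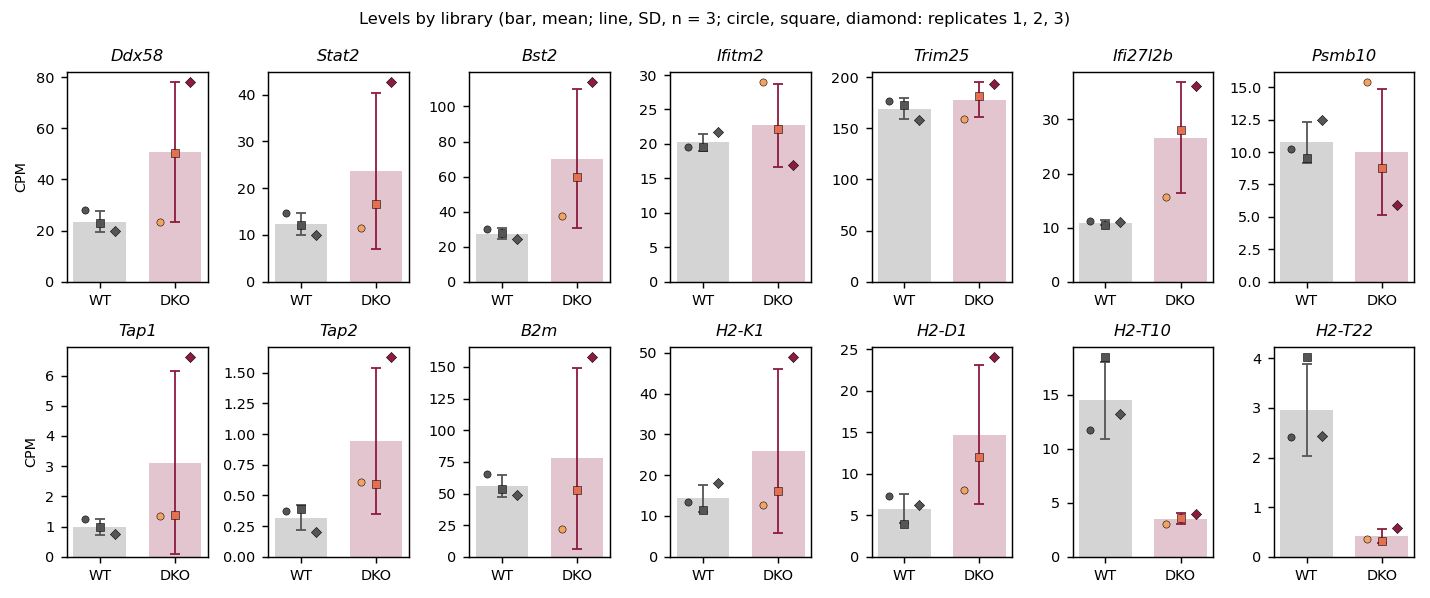
CPM (y axis, from 0) of the single genes named above each panel in the WT libraries and the libraries labelled DKO; bars are means, lines the SD (n = 3) and symbols the libraries. Bst2 is at 24.3 to 30.2 CPM across the WT libraries, against 37.3 to 114 CPM for those labelled DKO, and H2-T10 is at 11.7 to 18.5 CPM and 3 to 3.96 CPM.

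In the ISG15 system, in which a ubiquitin-like protein is attached to other proteins, levels spanned a wide range. Trim25, a ubiquitin and ISG15 ligase that activates RIG-I, measured 177, 173 and 158 CPM across WT libraries 1 to 3, against 159, 182 and 193 CPM across libraries 1 to 3 labelled DKO. The groups overlapped and the log2 fold change was 0.08 (SE 0.11). Isg15 itself had 12, 7 and 1 counts across the WT libraries, against 1, 17 and 67 for those labelled DKO, which is at most 1.21 CPM. Usp18, which removes ISG15 and damps signalling at the interferon receptor, was at 0.146 to 0.483 CPM across the WT libraries, against 0.486, 0.617 and 0.958 CPM for those labelled DKO. Its groups did not overlap, by a margin of 0.483 to 0.486 CPM, and the log2 fold change of 1.07 (SE 0.50) did not pass (adjusted p = 0.588, edgeR).

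Ifi27l2b, a member of the interferon-inducible Ifi27 family, had the lowest p of the genes that were higher. It measured 11.3, 10.4 and 11 CPM across WT libraries 1 to 3, against 15.7, 28.1 and 36.1 CPM across libraries 1 to 3 labelled DKO. All 3 libraries labelled DKO lay above the WT range. Its log2 fold change of 1.29 (SE 0.30) passed in DESeq2 (adjusted p = 0.00583) and not in edgeR (adjusted p = 0.312), and was 1.01 without library 3 (adjusted p = 0.0214 in DESeq2). Its DESeq2 call too was lost without WT library 1, 2 or 3 or library 2 labelled DKO (adjusted p = 0.0866, 0.133, 0.0987 and 0.106), at log2 fold changes of 1.31, 1.25, 1.29 and 1.24, beside 1.28 with all libraries. The related Ifi27 was near 0 CPM except in library 3, as above, and Ifi27l2b shares 0.211% of its 50-base exon stretches with another gene. Parp9 and Parp14, ADP-ribosylation enzymes, were at 1.07 to 1.15 CPM and 0.437 to 2.86 CPM in WT and reached 5.84 and 4.03 CPM in library 3 labelled DKO. Ifi35, a regulator of innate immune signalling, stayed between 5.31 and 7.59 CPM in all 6 libraries (log2 fold change -0.19, SE 0.19).

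The immunoproteasome replaces 3 catalytic subunits of the standard proteasome, Psmb5, Psmb6 and Psmb7, with Psmb8, Psmb9 and Psmb10, and so changes which peptides are made for class I. Psmb8 and Psmb9 were at or near 0 in 5 of the 6 libraries. Per 100 counts of Psmb5, Psmb8 had 0.184, 0.125 and 0.0587 counts across the WT libraries, against 0, 0.0968 and 1.55 for those labelled DKO. Per 100 counts of Psmb6, Psmb9 had 0.0237, 0 and 0.0298 across the WT libraries, against 0.0242, 0.0632 and 0.402 for those labelled DKO. Both replacement subunits were thus a small fraction of their standard counterparts, and highest in library 3. Psmb10 behaved differently: it measured 10.2, 9.52 and 12.5 CPM across WT libraries 1 to 3, against 15.4, 8.75 and 5.91 CPM across libraries 1 to 3 labelled DKO, lowest in library 3, with a log2 fold change of -0.11 (SE 0.35) that was 0.16 without that library. Per 100 counts of Psmb7 it had 5.05, 4.81 and 6.09 across the WT libraries, against 6.77, 4.36 and 2.83 for those labelled DKO. The 14 constitutive proteasome subunits had a median log2 fold change of -0.01, with 6 of the 14 positive.

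Tap1 and Tap2 form the transporter that moves peptides into the endoplasmic reticulum, and Tapbp (tapasin) joins it to class I. Tap1 measured 1.26, 0.971 and 0.744 CPM across WT libraries 1 to 3, against 1.34, 1.39 and 6.62 CPM across libraries 1 to 3 labelled DKO. Libraries 1 and 2 lay just above the WT range and library 3 far above it. The log2 fold change was 1.65 (SE 0.71, adjusted p = 0.56, edgeR) and 0.44 without library 3. Tap2 measured 0.371, 0.389 and 0.199 CPM across WT libraries 1 to 3, against 0.608, 0.592 and 1.63 CPM across libraries 1 to 3 labelled DKO (log2 fold change 1.56, SE 0.55, adjusted p = 0.497, edgeR). Its groups did not overlap either, and without library 3 the value was 0.88. Tapbp was at 6.7 to 6.79 CPM across the WT libraries, against 6.44, 7.56 and 11.4 CPM for those labelled DKO, with 23.2% of its 50-base stretches shared with other annotated genes.

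Tap1 and Psmb9 start 226 bases apart on opposite strands of chromosome 17. Their shared start region is shown by a rule that took it where both genes were in the count table. The window of Tap1, on the plus strand at chr17:34187306-34187605 of GRCm38.p6, holds neither the ISRE core nor the GAS core and is given in lower case throughout.
Tap1: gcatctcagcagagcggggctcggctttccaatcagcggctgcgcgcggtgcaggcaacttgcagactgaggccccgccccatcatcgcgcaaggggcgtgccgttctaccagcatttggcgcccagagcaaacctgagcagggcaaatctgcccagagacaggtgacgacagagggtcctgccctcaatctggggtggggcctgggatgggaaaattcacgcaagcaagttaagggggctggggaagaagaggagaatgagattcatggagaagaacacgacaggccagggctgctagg

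B2m, the light chain of every class I molecule, had the highest level per kilobase of exon of the 40 genes in WT, at 65.1 CPM per kilobase. In single libraries it measured 65.3, 53.5 and 49 CPM across WT libraries 1 to 3, against 22.2, 52.9 and 158 CPM across libraries 1 to 3 labelled DKO. Library 1 was the lowest of all 6, library 2 lay within the WT range and library 3 was the highest. The log2 fold change was 0.48 (SE 0.64) with all libraries and -0.57 without library 3, so its sign rested on that library. The classical heavy chain H2-K1 measured 13.4, 11.5 and 18 CPM across WT libraries 1 to 3, against 12.6, 16.2 and 49 CPM across libraries 1 to 3 labelled DKO. Libraries 1 and 2 fell within the WT range, and the log2 fold change of 0.87 (SE 0.52) was 0.01 without library 3.

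The other classical heavy chain, H2-D1, measured 7.28, 3.93 and 6.2 CPM across WT libraries 1 to 3, against 8.07, 12 and 24.1 CPM across libraries 1 to 3 labelled DKO. Here all 3 libraries labelled DKO lay above the WT range, library 1 only just. The log2 fold change of 1.35 (SE 0.44) did not pass in edgeR or DESeq2 (adjusted p = 0.471 and 0.0939) and was 0.79 without library 3. It passed in limma-voom with quality weights (1.18, adjusted p = 0.025). H2-T23, which encodes the non-classical molecule Qa-1 that presents leader peptides of other class I chains, was at 5.72 to 6.12 CPM across the WT libraries, against 3.93, 5.45 and 11.7 CPM for those labelled DKO. Libraries 1 and 2 were below the WT range and library 3 above it, and the log2 fold change was 0.25 (SE 0.40) with and -0.34 without library 3. H2-K1, H2-D1 and H2-T23 share 9.63%, 12.8% and 14.5% of their 50-base stretches with other annotated genes.

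H2-T10 and H2-T22 encode non-classical class I molecules that do not display peptides and are recognised by some gamma delta T cells. H2-T10 measured 11.7, 18.5 and 13.2 CPM across WT libraries 1 to 3, against 3, 3.6 and 3.96 CPM across libraries 1 to 3 labelled DKO. The 3 libraries labelled DKO lay close together and far below the WT range. Means were 14.5 ± 3.59 CPM and 3.52 ± 0.485 CPM (SD, n = 3), a 4.09-fold lower level (log2 fold change -2.03, SE 0.23). H2-T22 measured 2.41, 4.03 and 2.43 CPM across WT libraries 1 to 3, against 0.365, 0.309 and 0.579 CPM across libraries 1 to 3 labelled DKO, 6.91-fold lower (log2 fold change -2.79, SE 0.39). The groups were again apart, on 49 to 83 counts per WT library and 9 to 32 per library labelled DKO.

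In edgeR the adjusted p was 0.0866 for H2-T10 and 0.115 for H2-T22, short of the threshold, with unadjusted p of 7.42e-05 and 0.000231. In DESeq2 the adjusted p was 3.98e-12 and 6.12e-07. Leaving out each library in turn gave log2 fold changes from -2.17 to -1.82 for H2-T10 and from -3.13 to -2.51 for H2-T22. Both passed in DESeq2 each time, and in edgeR only without library 1 labelled DKO (adjusted p = 0.0312 and 0.0391), in fits whose adjusted p otherwise reached 0.541. The difference did not rest on library 3: without it the values were -2.13 and -3.13, and DESeq2 still called both (adjusted p = 9.34e-11 and 2.02e-06). H2-T10 and H2-T22 share 31.7% of the 50-base stretches of H2-T10, and 50.4% and 53.5% of their stretches occur in some other gene, so reads of the pair may have been exchanged or dropped. GENCODE annotates H2-T10 as a polymorphic pseudogene.

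Both genes lie in the T region of the MHC on chromosome 17 of GRCm38, H2-T22 from 36037128 to 36042747 and H2-T10 from 36115876 to 36121465, on the minus strand. Their neighbour H2-T23, from 36029773 to 36032855, overlapped between the groups, as described. H2-M3, which presents N-formylated peptides and lies further along the chromosome, was at 0.397 to 0.486 CPM across the WT libraries, against 0.0405, 0.206 and 0.181 CPM for those labelled DKO (log2 fold change -1.56, SE 0.52, adjusted p = 0.474, edgeR). In the opposite direction, the class II gene H2-Ab1 measured 0.668, 0.486 and 0.844 CPM across WT libraries 1 to 3, against 1.66, 1.98 and 4.16 CPM across libraries 1 to 3 labelled DKO (log2 fold change 1.97, SE 0.46). H2-Ab1 passed in DESeq2 (adjusted p = 0.0176) and not in edgeR (adjusted p = 0.313). Of the 7 class II genes listed 3 were tested, all with a positive log2 fold change. Genes of this polymorphic region thus lay on both sides of 0, between groups that also differ in strain. Of the 26 further class I presentation genes listed, 23 were tested, 15 had a positive log2 fold change and the median was 0.21. edgeR and DESeq2 called 0 of them and limma-voom 4, beside 18.7% of all genes for limma-voom. Only 1, H2-M3, which was lower, had an unadjusted p under 0.05 in edgeR, beside 3.54% of all genes in that direction.

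**Figure D4:**
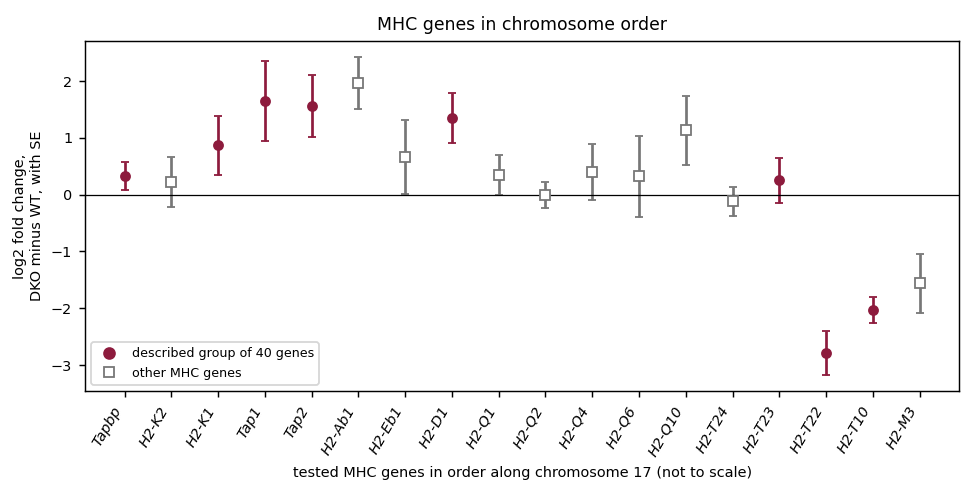
edgeR log2 fold changes, libraries labelled DKO minus WT, with SE (y axis) of the tested MHC genes in their order on chromosome 17 (x axis, not to scale); filled circles are among the 40 genes and open squares are other MHC genes. H2-T22 and H2-T10 stand at -2.79 and -2.03 next to H2-T23 at 0.25, and H2-Ab1 stands at 1.97.

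Upstream of the 40 genes, transcripts of the interferons themselves were almost absent. Of 21 interferon genes in the table, 19 had no count in any library, and the sum over all 21 was 0 to 0.149 CPM across the WT libraries, against 0 to 0.0904 CPM for those labelled DKO. The limit that a count of 0 allows, 3 counts, is 0.0542 to 0.149 CPM per library, so the sums are near the limit of detection in both groups. The receptors were present throughout: Ifnar1 at 84.1 to 99.1 CPM, Ifnar2 at 13.7 to 17.1 CPM, Ifngr1 at 21.2 to 30 CPM and Ifngr2 at 12.4 to 24.2 CPM over the 6 libraries. Log2 fold changes were -0.07 (SE 0.09) for Ifnar1, 0.14 (SE 0.12) for Ifnar2, 0.28 (SE 0.12) for Ifngr1 and 0.09 (SE 0.28) for Ifngr2. The receptor chains for interferon lambda, Ifnlr1 and Il10rb, were at 0.03 (SE 0.21) and 0.02 (SE 0.30).

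Of the 16 receptor and JAK-STAT genes, all tested, 11 had a positive log2 fold change and the median was 0.12. edgeR called 0 of them, and 2 higher and 1 lower had an unadjusted p under 0.05, beside 5.55% and 3.54% of all genes. These were Jak2, a kinase of the interferon gamma receptor (-0.28, SE 0.10), and the inhibitors of signalling Socs3 (0.87, SE 0.34) and Ptpn6 (0.40, SE 0.16). DESeq2, with adjusted p of 0.345, 0.288 and 0.416 for these, called 0 of the 16, beside 1.92% of all genes. With quality weights limma-voom called 4, beside 18.7% of all genes.

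Of 20 further sensing adaptors, kinases and interferon regulatory factors, 18 were tested, 14 had a positive log2 fold change and the median was 0.13. edgeR called 0 of them, and 1, the endosomal RNA sensor Tlr7 (1.05, SE 0.40), had an unadjusted p under 0.05, beside 5.55% of all genes in that direction. DESeq2 called 0 and limma-voom 1, beside 1.92% and 18.7% of all genes. Among 56 further interferon-induced genes, 35 were tested, 18 were positive and the median was 0.09. Of all 56, 9, 17 and 37 lay above all WT libraries in libraries 1, 2 and 3 labelled DKO, beside 34.1%, 34.7% and 41.5% of all genes tested. Below them lay 25, 11 and 10, beside 33.7%, 33.9% and 40.5% of all genes tested. The 56 include genes too low to be tested, so these shares are not a matched background. Among the 3005 untested genes in the CPM range of the 9 untested genes above, 21.8%, 18.5% and 18% lay below. Median differences of the 56 were -0.13, 0.05 and 0.47 on the log2(CPM + 0.5) scale. edgeR called 0 of these, DESeq2 called 1 and limma-voom 6, beside 1.92% of all genes for DESeq2 and 18.7% for limma-voom. In edgeR 1 higher and 2 lower had an unadjusted p under 0.05, beside 5.55% and 3.54% of all genes. Gbp4, a guanylate-binding GTPase, measured 3.71, 3.98 and 3.42 CPM across WT libraries 1 to 3, against 0.324, 0.823 and 0.868 CPM across libraries 1 to 3 labelled DKO. Like H2-T10 and H2-T22 it was low in all 3 (log2 fold change -2.42, SE 0.39), with an adjusted p of 0.152 in edgeR and 7.98e-07 in DESeq2. Trim34a, of the tripartite-motif family, was higher (1.24, SE 0.34) and Slfn9, of the Schlafen family, lower (-0.58, SE 0.19), and neither passed in edgeR or DESeq2.

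Markers of macrophages, cells that express many interferon-induced and class I genes, were also at their highest summed level in library 3 labelled DKO. The 23 macrophage and myeloid markers summed to 101 to 135 CPM across the WT libraries, against 105, 164 and 232 CPM for those labelled DKO (exact permutation p = 0.3, two-sided, where the smallest possible is 0.1). Library 3 lay above all WT libraries for 20 of the 23 markers, library 2 for 12 and library 1 for 3. Over all genes tested the shares were 41.5%, 34.7% and 34.1% in libraries 3, 2 and 1. These shares leave out genes too low to be tested, which the marker list includes. Of 13 markers tested, 12 had a positive log2 fold change (median 0.73). An unadjusted p under 0.05 was seen for 2, both higher, beside 5.55% of all genes. edgeR called 0 of the macrophage and myeloid markers, DESeq2 1 and limma-voom 4, beside 1.92% of all genes for DESeq2 and 18.7% for limma-voom. The most abundant were Mrc1, the mannose receptor, at 59.1 to 75 CPM across the WT libraries, against 61.9, 91.3 and 65.8 CPM for those labelled DKO, and Laptm5, a lysosomal protein of blood cells, at 12.9 to 19.3 CPM and 15.6, 24.9 and 27.2 CPM. Csf1r, the receptor for macrophage growth factor, and C1qb, a complement subunit, were chosen after their values were seen. Csf1r measured 4.9, 4.27 and 2.28 CPM across WT libraries 1 to 3, against 2.51, 10.6 and 67 CPM across libraries 1 to 3 labelled DKO, and C1qb was at most 0.111 CPM in WT and 6.62 CPM in library 3. Mrc1 thus made up most of the WT sums and stayed within its WT range in library 3. Csf1r alone held 67 of the 232 CPM there, so the sum does not follow all markers alike. No marker of the list was at 0 in library 3, where the lowest had 32 counts. Their part in the levels of the interferon and class I genes was not tested.

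Lymphocyte markers were near the limit of detection, with 15 markers summing to 0.844 to 1.48 CPM across the WT libraries, against 0.405 to 1.23 CPM for those labelled DKO (exact permutation p = 0.6), and Cd79b and Prf1, of B cells and of cytotoxic cells, at most at 0.832 and 0.297 CPM. Maternal decidua markers, for tissue that can adhere to a dissected yolk sac, summed to 315 to 350 CPM across the WT libraries, against 327, 422 and 425 CPM for those labelled DKO (exact permutation p = 0.3). Its most abundant markers, the gap junction gene Gja1 and the prolactin receptor gene Prlr, measured 162 to 207 CPM and 34.4 to 55.1 CPM over the 6 libraries. Gja1 thus held a large part of each decidua sum, which says little about the less abundant markers. Of 12 decidua markers tested, 9 had a positive log2 fold change (median 0.53). An unadjusted p under 0.05 was seen for 5 higher and 1 lower, beside 5.55% and 3.54% of all genes. edgeR and DESeq2 called 0 of the decidua markers, and limma-voom 4, beside 18.7% of all genes. Trophoblast and placenta markers summed to 148 to 197 CPM across the WT libraries, against 354, 178 and 461 CPM for those labelled DKO (exact permutation p = 0.2), with the transcription factor gene Hand1 at 116 to 130 CPM for WT, against 237, 114 and 59.6 CPM. Hand1 thus made up most of the WT sums, and was at its lowest in library 3, where the sum was highest, so the sum does not follow a single tissue. All 9 trophoblast markers tested had a positive log2 fold change (median 1.38), and 3 had an unadjusted p under 0.05, beside 5.55% of all genes in that direction. edgeR called 0 of them, limma-voom 2 and DESeq2 3, which were Rhox6 (1.38, SE 0.33), Rhox9 (1.88, SE 0.55) and Hsd3b6 (2.01, SE 0.52). Over all genes limma-voom called 18.7% and DESeq2 1.92%. Endothelial markers summed to 735 to 840 CPM across the WT libraries, against 851, 933 and 675 CPM for those labelled DKO (exact permutation p = 0.7). In library 3 labelled DKO the decidual prolactin gene Prl8a2, chosen after its values were seen, was at 33.7 CPM against at most 2.84 CPM elsewhere, and the trophoblast gene Prl2c2 was at 235 CPM against at most 13.7 CPM. The part of these tissues in the result was not tested either.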

How the data were processed

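Single-end mRNA reads from 6 yolk sac libraries, 3 WT and 3 labelled DKO, had been counted per gene symbol. The authors deposited these raw counts, which were not altered. The submitters' processing notes name mm10, SAMtools and DESeq2, with no versions. Aligner, counter, annotation and strand use are not given in the sources. The member genes and the other lists were chosen with earlier results of these data known.

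Groups were compared with edgeR 4.0.16 (quasi-likelihood F test, TMM, filterByExpr by group, robust) in R 4.3.3 on all 6 libraries. The filter kept 14002 genes of 25239, and 5183 had no count. Benjamini-Hochberg adjustment ran over the tested genes, and calls needed an adjusted p under 0.05. A positive fold change means higher in libraries labelled DKO, and its SE is its size divided by the root of F. Differences of single libraries used log2(CPM + 0.5), and marker sums an exact two-sided permutation test. Limits from 3 counts cover counting error only. Annotation and exon stretches came from GENCODE M21, and promoters from RefSeq, both on GRCm38. There were 0 columns without a sample.

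By rule, every library's value is printed for genes with a mean of at least 10 CPM, or with groups apart and a mean of at least 1 CPM, or with an unadjusted p under 0.05. From the other pathway lists come up to 4 genes with the lowest p under 0.05, and the receptors, and from the macrophage, lymphocyte, decidua and trophoblast lists the 2 highest. Values of other genes (Rsad2, Oasl2, Ifi27, Psmb8, Isg15, Usp18, Csf1r, C1qb and Prl8a2) were added after they were seen, some as ranges or maxima.

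Alternatives were DESeq2 1.42.0, limma-voom 3.58.1 with library quality weights, RLE or total-count scaling, other filters, a replicate block and each library left out. Whether libraries with the same replicate number were paired is not in the labels, and the main fit did not pair them. One gene covered by the naming rule is not reported here.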

Additional observations from a re-analysis of the deposited data

How the results depend on the processing

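Calls depended on the tool and on single libraries. Genes called numbered 5 in edgeR, 296 in DESeq2, 2622 in limma-voom with quality weights, 8 without a filter and 1 with the replicate block, and 4, 8, 0 and 0 of the 40 genes were called under these alternatives in turn. Same-numbered libraries had correlations of -0.371, -0.283 and -0.189 in their deviations, which gave no sign of pairing. With 3 libraries a group such correlations cannot exclude a shared batch. The replicate block left a median of 0.50. Leaving out each library in edgeR gave 0 to 634 genes called, 0 to 5 of the 40 called, and medians of 0.02 to 0.96. Leaving out WT library 1, 2 or 3 or library 1, 2 or 3 labelled DKO in DESeq2, an alternative chosen after seeing the data, gave 112, 103, 143, 2935, 156 and 258 genes and 2, 2, 2, 11, 2 and 4 of the 40, and a median of 0.02 without library 3 labelled DKO. The cause was not tested.

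Signs turned under some settings. With limma-voom they were -0.62 for Irf7, -0.07 for B2m and -0.07 for H2-T23. In DESeq2 without library 3 labelled DKO they were -0.07 for Dhx58, -0.23 for Irf1, -0.42 for Irf7, 0.00 for Ifit2, -0.05 for Ifitm3, -0.20 for Isg15, -0.04 for Parp14, 0.16 for Psmb10, -0.58 for B2m and -0.33 for H2-T23. Without WT library 1 and 2 Dhx58 was -0.03 and -0.27, without WT library 3 Psmb10 was 0.01, and without library 1 labelled DKO Ifitm2 was -0.06. In edgeR the ranges over left-out libraries were -0.26 to 0.79 for Dhx58, -0.23 to 0.48 for Irf1, -0.46 to 1.62 for Irf7, -0.21 to 0.00 for Ifit2, -0.05 to 0.33 for Ifitm2, -0.05 to 0.64 for Ifitm3, -0.14 to 1.57 for Isg15, -0.05 to 1.97 for Parp14, -0.56 to 0.16 for Psmb10, -0.57 to 0.91 for B2m and -0.34 to 0.54 for H2-T23. Differences in summed CPM ranged from -0.405 to 0.00677 for lymphocyte, -22.7 to 107 for endothelial and -4732 to 12578 for visceral endoderm markers. Depth limits the 9 untested genes, and genotype, strain and tamoxifen differ together.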
